A study of Mus musculus with 18 samples.

Results

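Undifferentiated 3T3-L1 cells labelled MLKL-/- were compared with undifferentiated control cells of the same line by RNA sequencing. 3T3-L1 is a mouse embryonic fibroblast line that is grown as preadipocytes and turns into adipocytes under a hormone cocktail. The comparison takes 6 of the 18 libraries of the study, 3 called J0_MLKL (genotype MLKL-/-, untreated) and 3 called J0_CTL (genotype CTL, untreated), and all genes for which the deposited tables give raw reads in both groups. Other libraries served only where named: J0_RIPK3 (RIPK3-/-, untreated), and J7_CTL, J7_MLKL and J7_RIPK3 (differentiated cells), with 3 libraries each. For the J7 knockouts the sample title and the genotype entry name different genes, so those groups carry their title name only. The labels do not say how the Mlkl gene was disrupted, whether the MLKL-/- cells are 1 clone or a pool, or whether replicates came from different cultures. P-values therefore measure the spread between these libraries only. A difference between 2 cell populations cannot be told apart from an effect of the labelled knockout.

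MLKL is the pseudokinase that carries out necroptosis: the kinase RIPK3 phosphorylates it, it oligomerises and it breaks the plasma membrane. Preadipocytes also keep a basal interferon response, in which type I interferon receptors signal through JAK1 and TYK2 to transcription factors such as STAT2 and IRF9, which bind the interferon-stimulated response element and switch on antiviral genes. Such cells are defined in addition by their collagen-rich matrix and by Wnt and BMP signals that set the balance between proliferation and adipogenesis. The p53 pathway limits cell growth.

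Counts in both groups were found for 4068 genes, and 3824 of them passed a filter on low counts and were tested with edgeR. The authors deposited rows only for genes past their own threshold (adjusted p under 0.05), and 3055 of the 4068 genes are known because they passed it in this very comparison (16.9% of the 18026 genes the authors tested). Most tested genes therefore had to differ: 3196 (83.6%) were called at an adjusted p under 0.05, 1545 higher (40.4%) and 1651 lower (43.2%) in J0_MLKL, with a median log2 fold change of -0.039. The libraries of the groups did not overlap in 3287 genes (86.0%), and 999 genes (26.1%) were called with a change of at least 2-fold. Counts of gene lists below are to be read against these shares, and a share near them says nothing about a list. The 1013 genes known only through other tables gave 852 tested genes, of which 148 were higher and 76 lower. Adjusted p-values were taken over the 3824 tested genes only, most of which had passed the authors' threshold in these same libraries. They are therefore no false discovery rate over the 18026 genes the authors tested. Levels are given as CPM, the raw count scaled to the library size behind the authors' FPKM (24.8 to 34.8 M in J0_CTL, 23.2 to 28.4 M in J0_MLKL). Levels of different genes are compared only as FPKM, the authors' value per kilobase of gene length.

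Fibroblast markers were found in both groups. Values for both groups are given for 7 of 13 markers. The others, such as Vim (5358 to 5842 CPM in J0_CTL), have no values for J0_MLKL, which does not mean 0 reads. The sum over the 7 markers was 8595 to 9117 CPM in J0_CTL and 11978 to 12703 CPM in J0_MLKL. Col1a1 and Col3a1 made up most of this sum and of its rise, while Thy1 (254 to 274 CPM in J0_CTL, 137 to 180.0 in J0_MLKL) and Ly6a (114 to 128 and 68.6 to 99.2 CPM) went the other way and Cd34 was low (0.977 to 1.51 and 2.46 to 3.45 CPM). Adipocyte markers were low: Adipoq had 0 reads in all 6 libraries, Plin1 and Cidec stayed at or under 0.206 CPM, and the sum of 5 markers was 24.7 to 25.8 CPM in J0_CTL and 16.7 to 18.2 CPM in J0_MLKL. The library J0_MLKL 2 stood apart from J0_MLKL 1 and 3. A chi-square per gene between libraries was 43.3 and 49.4 for the pairs with J0_MLKL 2, 3.06 for J0_MLKL 1 with 3, and 2.91 to 3.61 for the J0_CTL pairs. Its deviation went with gene length: over 3203 genes, J0_MLKL 2 lay above the mean of J0_MLKL 1 and 3 by a median log2 of 0.28 in the 801 shortest genes, and its median there was -0.26 in the 801 longest. The part of gene length in the results was not tested. Main counts are given with and without this library.

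Mlkl itself (ENSMUSG00000012519, chromosome 8, 111311797 to 111338177, mm10) had 18.2, 19.8 and 18.6 CPM in J0_CTL and 7.24, 9.72 and 7.19 CPM in J0_MLKL. Its reads fell 2.32-fold (log2 fold change -1.20 ± 0.13 SE, adjusted p 0.000137), and every J0_MLKL library lay below every J0_CTL library. Reads are counted over the whole gene, so they do not show whether its coding sequence was disrupted. Ripk3, the kinase upstream (chromosome 14, 55784995 to 55788865, mm10), fell as well, from 19.6, 16.8 and 18.3 CPM to 5.73, 9.44 and 7.19 CPM (log2 fold change -1.25 ± 0.17 SE, adjusted p 0.000381). In J0_RIPK3 Mlkl stood at 15.6, 14.5 and 17.7 CPM and Ripk3 at 14.7, 17.3 and 15.8 CPM. The direct contrast of J0_MLKL with J0_RIPK3 gave -0.94 for Mlkl (adjusted p 0.000956) and -1.05 for Ripk3 (adjusted p 0.00134) on the log2 scale. Of the 28 necroptosis genes listed, 6 were tested, 5 were lower and 0 higher. Zbp1, the nucleic acid sensor that can engage RIPK3, stood at 1.98, 1.82 and 1.53 CPM in J0_CTL and 0.819, 1.51 and 1.16 CPM in J0_MLKL (adjusted p 0.0572, not called). Of 7 other tested genes that start within 1 Mb of Mlkl, 5 were higher (Vac14, Mtss1l, Il34, Zfp1 and Gabarapl2, log2 0.36 to 1.23). Ddx19b was lower (-0.53, adjusted p 0.0625 without J0_CTL 1) and St3gal2 was not called (-0.011). This count lies near that of the whole of chromosome 8, where 174 of 256 tested genes (68.0%) were higher.

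Genes of the interferon response were mainly lower. The list holds 94 genes, 58 were tested, 50 of these (86.2%) were lower in J0_MLKL and 6 (10.3%) higher, with a median log2 fold change of -0.83 against -0.039 over all genes. At least 2-fold lower were 25 of the 58, beside 543 of all 3824 genes. Without J0_MLKL 2 the counts were 51 lower and 6 higher.

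A promoter was found for 6 of the 12 members with the largest falls, and the other 6 were not examined. Sequences are shown for the 4 of these 6 whose promoter holds an interferon-stimulated response element, here GAAA, any 2 bases and GAAA again, on either strand within 250 bases before the RefSeq start (GRCm38.p6, the mm10 assembly). They give the stretch around the match 5′ to 3′ on the gene's strand, with the match in capitals, and TTTC runs are matches on the opposite strand:
Oas1g, chr5:120887614-120887651, minus strand: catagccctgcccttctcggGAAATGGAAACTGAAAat
Oas1a, chr5:120907526-120907565, minus strand: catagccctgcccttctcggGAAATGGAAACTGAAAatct
Ddx60, chr8:61928014-61928086, plus strand: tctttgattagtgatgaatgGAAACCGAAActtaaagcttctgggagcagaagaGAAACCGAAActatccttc
Ifit1, chr19:34640765-34640833, plus strand: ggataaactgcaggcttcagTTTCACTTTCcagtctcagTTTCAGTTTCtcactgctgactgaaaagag
In Oas1g and Oas1a 2 overlapping matches lie within a few bases of the start, and in Ddx60 and Ifit1 2 separate matches lie side by side. A match was held by 936 of all 27025 RefSeq promoters (3.46%). Promoters were found for 35 of the 50 lower members (17 with a match), under the 80% needed for a share, so no share of the list is given. A match is a run of letters and does not show that a factor binds there.

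Sensors of foreign RNA, the entry of this pathway, were lower. Ifih1, which encodes the long double-stranded RNA sensor MDA5, had 7.79, 7.48 and 6.74 CPM in J0_CTL and 0.474, 0.282 and 0.348 CPM in J0_MLKL, a 20.5-fold fall (log2 fold change -4.29 ± 0.20 SE, adjusted p 3.15e-06). Ddx58, which encodes RIG-I, the sensor of short RNA with a triphosphate end, fell from 80.9, 77.5 and 80.7 to 42.3, 32.8 and 40.1 CPM, 2.09-fold. All 4 tested sensors were lower.

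The oligoadenylate synthetases, which make the messenger that activates RNase L, had the lowest median of the roles in this list (log2 -3.19). Oas2 stood at 17.1, 19 and 16.1 CPM in J0_CTL and 1.08, 0.916 and 0.966 CPM in J0_MLKL, a 17.8-fold fall (log2 fold change -4.11 ± 0.14 SE, adjusted p 1.09e-06). Oas1a fell 19.4-fold, from 8.05, 6.21 and 6.5 to 0.345, 0.458 and 0.27 CPM. Oasl2, a family member that is itself interferon-induced, fell 4.96-fold, from 31.9, 28.1 and 29.9 to 6.98, 6.16 and 5.14 CPM. Oas1g had 1.18, 1.34 and 1.53 CPM in J0_CTL and 1 read over the 3 J0_MLKL libraries, all in J0_MLKL 2, a ratio of 103 (exact 95% counting interval 18.1 to 4103). All 6 tested OAS members were lower, and since Oas1 copies are near-identical, reads may be divided among them by the authors' counting.

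Effectors that bind viral RNA or modify proteins were lower too. Ifit1, which binds RNA without a host cap, had 37.2, 30.4 and 39.1 CPM in J0_CTL and 7.33, 7.26 and 7.49 CPM in J0_MLKL (4.82-fold lower, log2 fold change -2.24 ± 0.12 SE, adjusted p 4.46e-06). Isg15, the ubiquitin-like modifier, had 26.3, 25.3 and 29.1 CPM in J0_CTL and 6.6, 7.57 and 6.37 CPM in J0_MLKL, and Usp18, which removes it, had 15.3, 15.8 and 16.5 CPM in J0_CTL and 4.7, 4.26 and 5.41 CPM in J0_MLKL. Their falls were 3.89-fold and 3.31-fold, with no overlap of the groups. Rtp4 fell 6.02-fold, Ifi44 4.3-fold and Ddx60, a helicase co-factor of RNA sensing, 6.13-fold. Ddx60 was 0.916 CPM in J0_MLKL 2 and 2.29 and 2.47 CPM in J0_MLKL 1 and 3. Of 6 tested IFIT and MX genes 5 were lower, and Mx1, with 4.8, 4.36 and 6.58 CPM in J0_CTL and 3.28, 2.89 and 4.52 CPM in J0_MLKL, was not called (adjusted p 0.0579).

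The interferon-inducible GTPases, which attack vacuoles that hold microbes, were lower in all 9 tested cases. Iigp1 had 27.2, 28.5 and 27.7 CPM in J0_CTL and 4.44, 4.47 and 4.64 CPM in J0_MLKL, with a fall of 6.15-fold and little spread within groups (log2 fold change -2.59 ± 0.089 SE, adjusted p 1.09e-06). Gbp9 fell 6.99-fold, Gbp8 8.61-fold and Gbp4 6.46-fold, the last 2 from levels near 1 CPM. Guanylate-binding proteins form a family of similar genes, and shared reads cannot be separated in these tables.

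Of the 5 tested receptor and kinase genes 4, all receptors, were higher and 1, the kinase Jak1, was lower. Ifnar1, a chain of the type I receptor, rose from 105, 109 and 106 to 145, 132 and 145 CPM, 1.31-fold (log2 fold change 0.43 ± 0.063 SE, adjusted p 0.000624). Ifnar2 rose 1.52-fold, Ifngr2 1.38-fold and Il10rb 1.85-fold. These 4 receptor genes lie next to each other on chromosome 16, where the median of all tested genes was 0.46, and the median of the role minus the chromosome medians was 0.036. Jak1, the kinase bound to the receptors, fell from 271, 275 and 273 to 197, 148 and 196 CPM, with the lowest value in J0_MLKL 2 (log2 -0.57, and -0.44 without that library). Of the transcription factors, Stat2 fell from 105, 101 and 108 to 60.4, 48.3 and 52.2 CPM (1.97-fold), Irf9 1.63-fold and Irf7 2.08-fold. Irf1, which responds mainly to interferon gamma, rose 1.36-fold, and Ifitm1 was the only effector that rose (1.85-fold, from 2.5, 2.3 and 2.46 to 3.15, 6.02 and 4.02 CPM).

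**Figure D1:**
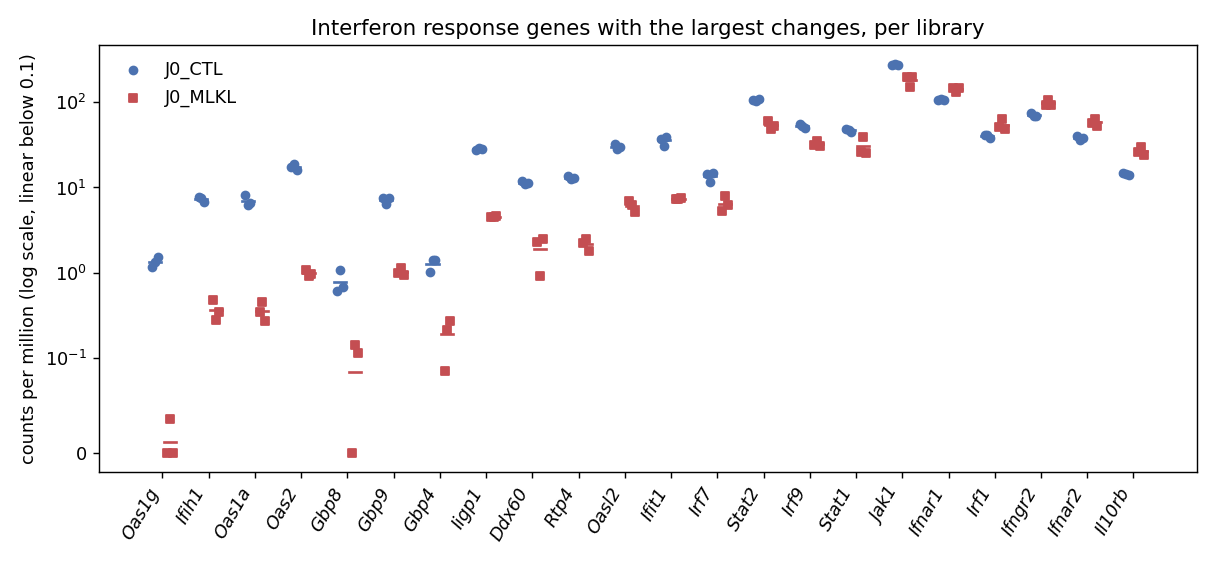
CPM of interferon response genes in each J0_CTL library (blue circles) and J0_MLKL library (red squares), with bars at group means. Shown are the 12 genes with the largest changes and the tested receptor, kinase and transcription factor genes of the list. The vertical axis is logarithmic above 0.1 and linear below, so that libraries with 0 reads appear. In each of those 12 genes the 3 J0_MLKL libraries lie below the 3 J0_CTL libraries, by 4.82-fold in Ifit1 and 17.8-fold in Oas2. Of the other genes, Ifnar1, Ifnar2, Ifngr2, Il10rb and Irf1 are higher in J0_MLKL.

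Genes of antigen presentation by MHC class I, many of them interferon-induced, moved with this list: 11 of 20 were tested, 8 were lower and 2 higher. The class I chain H2-K1 fell from 41.3, 40.0 and 43.2 to 11.2, 17.2 and 12.1 CPM (3.02-fold) and H2-Q4 15.2-fold, while H2-D1 fell 1.44-fold and B2m, their shared light chain, 1.33-fold. Nlrc5, the transactivator of class I genes, fell 6.01-fold, from 12.2, 11.5 and 10.7 to 1.72, 1.16 and 2.94 CPM. The immunoproteasome subunits Psmb8 and Psmb9 fell 2.52-fold and 2.86-fold and the peptide transporter Tap1 1.95-fold, whereas Psmb10 and the loading factor Tapbp were 1.69-fold and 1.45-fold higher. Class I genes are similar copies whose reads may be shared.

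The libraries labelled RIPK3-/- at the same stage gave a further contrast, although Ripk3 reads in them, given above, overlapped those of J0_CTL. In the direct contrast of J0_MLKL with J0_RIPK3, 66.5% of 3455 tested genes were called (33.1% higher, 33.4% lower). Of the interferon list 54 genes were tested there, 15 were higher in J0_MLKL, 12 lower, and the median log2 difference was -0.017. Ifit1 stood at 6.18, 7.98 and 9.61 CPM in J0_RIPK3, and its difference of -0.073 was not called (adjusted p 0.705). Iigp1 (0.19, adjusted p 0.46) and Oasl2 (-0.32, adjusted p 0.296) were not called either. A p that misses the threshold does not show that the 2 groups were alike. Lower in J0_MLKL than in J0_RIPK3 were Ifih1 (log2 -1.69, adjusted p 0.00202), Oas2 (-1.71, adjusted p 0.0023) and Rtp4 (-0.91, adjusted p 0.00742), and Gbp9 was higher (1.57, adjusted p 0.016).

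Differentiated cells of the 2 title groups J7_CTL and J7_MLKL were fitted together with the J0 groups. Over the 3033 genes with counts given for all 4 groups, 67.3% were called at J0 and 89.7% at J7 (48.3% higher). For the difference between the stages 65.3% were called. Of 53 interferon genes 44 were lower at J0, 49 were higher and 2 lower at J7, and 40 were lower at J0 and higher at J7 with a called difference, beside 9.46% of all genes. Their values stand in the closing section.

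Target genes of p53 were also mainly lower. Of 32 p53 target genes 19 were tested, 16 (84.2%) were lower and 2 (10.5%) higher, with a median log2 fold change of -0.56. Without J0_MLKL 2 the counts were 16 and 3. Cdkn1a, the p21 inhibitor of cyclin-dependent kinases, had 388, 372 and 366 CPM in J0_CTL and 186, 232 and 181 CPM in J0_MLKL (1.87-fold lower, log2 fold change -0.88 ± 0.092 SE, adjusted p 0.000112). Trp53inp1, a stress gene of p53, fell 2.73-fold from 287, 286 and 302 to 119, 82.2 and 122 CPM. Sesn2, a sestrin that restrains mTORC1, had 97.4, 98.4 and 98.7 CPM in J0_CTL and 39.5, 42.1 and 40.3 CPM in J0_MLKL and fell 2.41-fold with little spread. Bbc3, which encodes the death protein PUMA, fell 2.18-fold, the death receptor Eda2r 2.13-fold, the nuclease Aen 2.06-fold, Ccng1 1.83-fold and Zmat3 1.64-fold. Against this direction Sesn1 rose 1.26-fold, and Mdm2, the ubiquitin ligase that degrades p53 and is its target, rose 2.24-fold (log2 fold change 1.20 ± 0.068 SE, adjusted p 6.42e-06). Btg2 had the smallest fall (-0.22, adjusted p 0.0281), which lost the call without J0_CTL 1 (adjusted p 0.103), J0_CTL 3 or J0_MLKL 1. Plk2 had 135, 130.0 and 136 CPM in J0_CTL and 143, 141 and 143 CPM in J0_MLKL and was not called (adjusted p 0.0638).

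**Figure D2:**
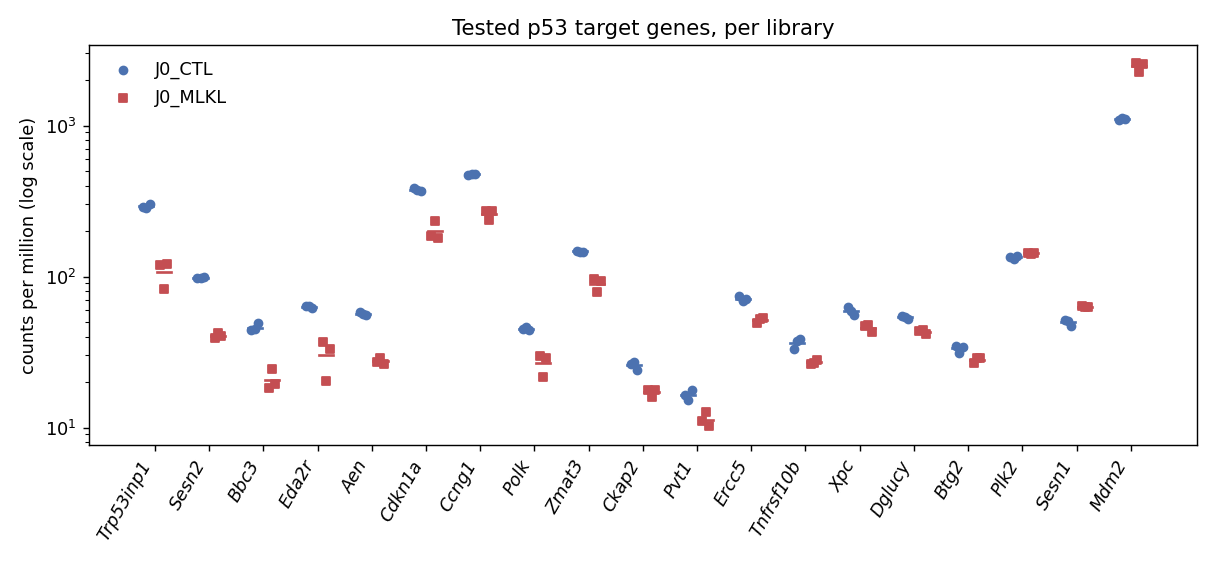
CPM (log scale) of the 19 tested p53 target genes in each J0_CTL library (blue circles) and J0_MLKL library (red squares), ordered by log2 fold change, with bars at group means. Of the 19 genes 16 are lower in J0_MLKL, and Mdm2 at the right is higher in all 3 J0_MLKL libraries.

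Genes beside Mdm2 on chromosome 10 were chosen for description after values had been seen. Of 20 tested genes that start within 2 Mb of Mdm2 (chromosome 10, 117688875 to 117710758, mm10), 2 were higher (Mdm2 and Slc35e3) and 17 lower. All 15 tested genes from Cct2 to Mdm1 were called. Mdm2 had 213, 219.6 and 216 FPKM in J0_CTL and 509, 447 and 505 FPKM in J0_MLKL, and Slc35e3, the next gene, a predicted sugar transporter, had 111, 113 and 108 FPKM in J0_CTL and 288, 275 and 294 FPKM in J0_MLKL. On both sides of this pair the levels fell. Cct2, a subunit of the chaperonin that folds actin and tubulin, had 506, 486 and 489 FPKM in J0_CTL, above the 456 FPKM of Actb, and 203, 258 and 204 FPKM in J0_MLKL. Yeats4, a chromatin reader, fell 2.85-fold from 164, 157 and 156 to 53.4, 64.4 and 49 FPKM, the nucleoporin Nup107 3.75-fold from 112, 116 and 115 to 31.6, 29 and 31.4 FPKM, and the small GTPase Rap1b 1.92-fold from 278, 273 and 277 to 147, 141 and 145 FPKM. Cpm, the carboxypeptidase gene next to Mdm2 on its other side, fell 10.7-fold to 0.333, 0.301 and 0.395 FPKM, and Lyz1 and Lyz2, the lysozymes, fell 9.6-fold and 2.99-fold. Farther out, Rab3ip stood at 13.3, 12.9 and 13.3 FPKM in J0_CTL and 11.9, 14.1 and 12.1 FPKM in J0_MLKL and was not called. In J0_RIPK3 the mean levels were 356 FPKM for Mdm2, 216 for Slc35e3, 409 for Cct2, 104 for Nup107 and 11.3 for Cpm. J0_MLKL was above J0_RIPK3 in Mdm2 (log2 0.49, adjusted p 0.000355) and below it in Nup107 (-1.73, adjusted p 1.64e-06), Cct2 (-0.84, adjusted p 0.000237) and Cpm (-5.00, adjusted p 2.13e-07). In differentiated cells Mdm2 averaged 145 FPKM in J7_CTL and 429 in J7_MLKL, and Cct2 865 and 439. The files hold RNA only, and DNA copy number was not measured.

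**Figure D3:**
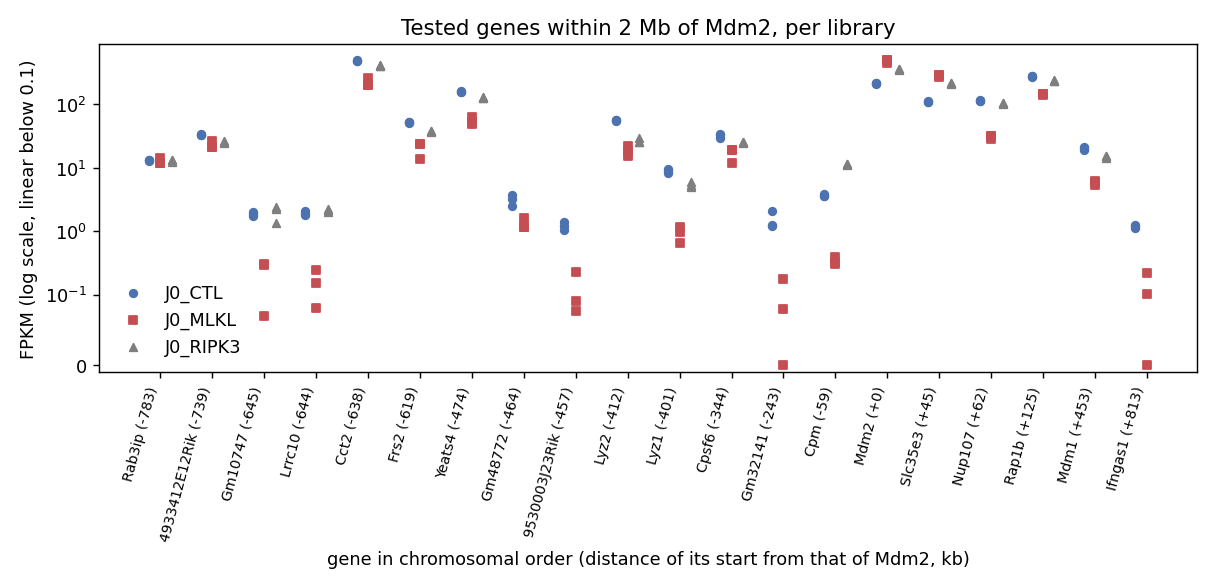
FPKM of the 20 tested genes within 2 Mb of Mdm2 in chromosomal order, for each J0_CTL (blue circles), J0_MLKL (red squares) and J0_RIPK3 library (grey triangles, where reads are known), with the distance of each start from that of Mdm2 in kb. The axis is logarithmic above 0.1 and linear below; Mdm2 and Slc35e3 are higher in J0_MLKL and 17 of their neighbours lower.

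The direction of change among tested genes, most of which the authors listed for this comparison, also differed by chromosome. On chromosome 18, 128 of 153 tested genes (83.7%) were lower and 13 higher, and on chromosome 4, 235 of 297 (79.1%) were lower and 30 higher. Chromosomes 2 (199 of 308 lower), 14 (71 of 111), 7 (185 of 307), X (88 of 148) and 6 (116 of 221) leaned the same way. The opposite was seen on chromosome 8, where 174 of 256 genes (68.0%) were higher and 48 lower, and on chromosomes 16 (91 of 134 higher), 15 (91 of 139) and 9 (113 of 175). Median log2 fold changes ran from -0.41 on chromosome X and -0.40 on chromosome 18 to 0.46 on chromosomes 8 and 16, and from -0.36 on chromosome 18 to 0.42 on chromosome 16 without J0_MLKL 2. With the authors' size factors the medians of chromosomes 18 and 8 were -0.45 and 0.42. The median was below 0 on 9 chromosomes and above 0 on 11. The tested genes that the authors did not list here, which did not pass their threshold, had medians closer to 0: 0.043 on chromosome 18 (19 genes), -0.068 on chromosome 4 (46), 0.083 on chromosome 14 (21), 0.018 on chromosome 7 (61), 0.089 on chromosome X (29), 0.15 on chromosomes 8 (45) and 9 (45) and 0.12 on chromosome 16 (20).

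The differentiated cells gave values from other libraries. On chromosomes 18, 4 and 14 the median was -0.55, -0.51 and -0.39 for J7_MLKL against J7_CTL, beside 1.16 on chromosome 9 and 1.12 on chromosome 16, with 0.51 over all 2755 genes. For J7_RIPK3 against the same J7_CTL libraries chromosome 18 had 0.28, chromosome 4 had -0.037, chromosome 14 had -0.30, chromosome 9 had -0.093 and chromosome 16 had 0.031. No test was made across chromosomes, since genes are not replicates. The gene lists were set against this pattern. The interferon list had 43 of its 58 tested genes on chromosomes with a median above 0, and 37 of these 43 were lower. After subtracting each chromosome's median, the list's median was -1.11, that of the p53 targets -0.69 and that of the extracellular matrix list 0.33. Other lists moved toward 0: the median of the necroptosis list went from -0.48 to -0.13, that of the TGF-beta and BMP pathway from -0.34 to -0.053 and that of the cell cycle list from -0.29 to -0.075.

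**Figure D4:**
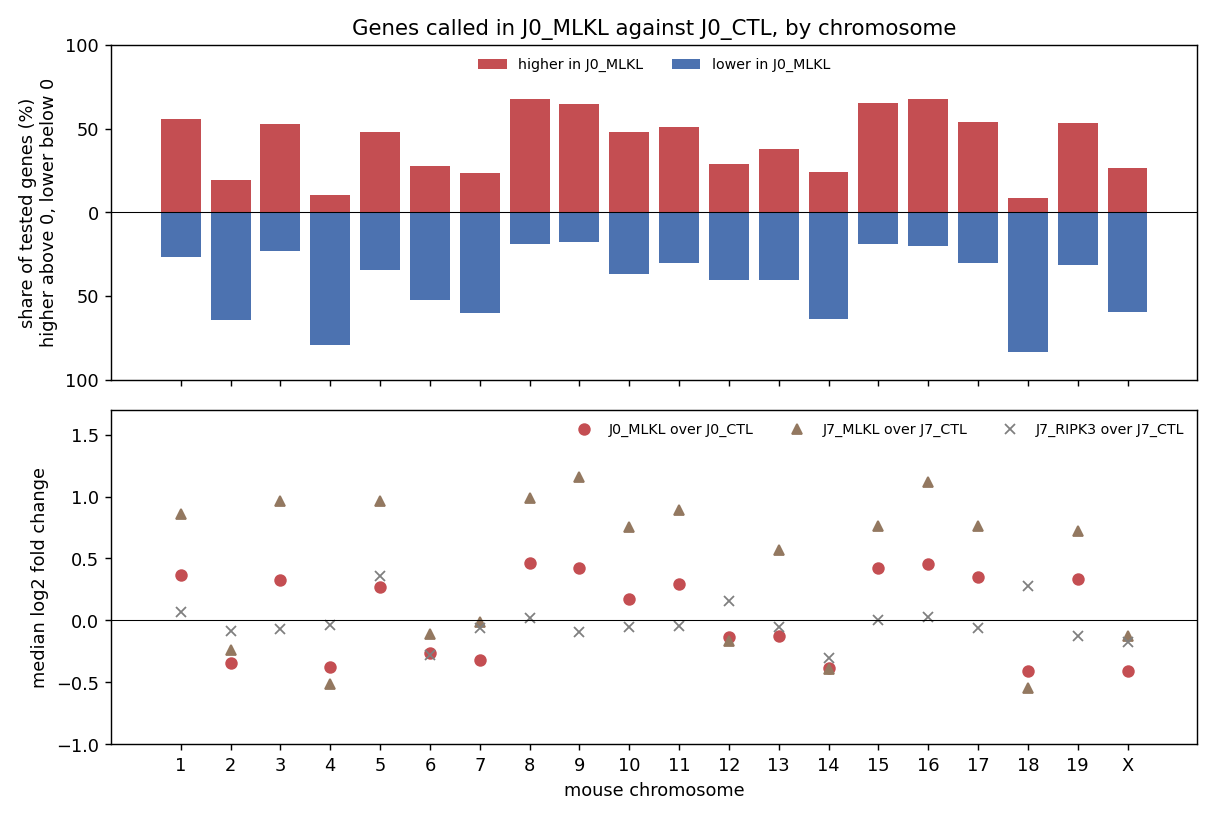
Upper panel: share of tested genes on each mouse chromosome that were called higher (red, upward) or lower (blue, downward) in J0_MLKL against J0_CTL. Lower panel: median log2 fold change per chromosome for J0_MLKL over J0_CTL (circles), J7_MLKL over J7_CTL (triangles) and J7_RIPK3 over J7_CTL (crosses, sharing J7_CTL with the triangles); chromosomes 4 and 18 are low for both J0_MLKL and J7_MLKL.

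Single genes changed far more than these medians. Smpdl3a, a secreted phosphodiesterase of the sphingomyelinase family, had 0 reads in J0_CTL and 1.9, 1.69 and 1.89 CPM in J0_MLKL, at least 53.8-fold higher when 3 reads for the whole group stand in for 0. Chrdl1, a secreted BMP antagonist, rose 87.1-fold, from 0.402, 0.549 and 0.363 to 40.7, 29.7 and 45.5 CPM (log2 fold change 6.48 ± 0.25 SE, adjusted p 1.57e-06). Kcnc2, a voltage-gated potassium channel, rose 65-fold to 36.2, 22.8 and 36.9 CPM. Panx1, the pannexin channel of the plasma membrane, had 1 read over the J0_CTL libraries and 1.51, 1.62 and 1.58 CPM in J0_MLKL, a ratio of 139.7 (exact 95% counting interval 24.6 to 5564). Genes near 0 in J0_CTL that rose in all 3 J0_MLKL libraries further included the coagulation gene F5 (34.4-fold), Serpind1, the heparin cofactor (32.6-fold), the zinc finger gene Zfp286 (66.9-fold), Tmtc2 (27.5-fold) and Lmcd1 (16.4-fold, to 10.4, 11.9 and 10.3 CPM). Kcnj2, an inward rectifier, and Aspg, an asparaginase, had 2 reads each over J0_CTL, with ratios of 57.3 (exact 95% counting interval 15.4 to 479) and 63 (exact 95% counting interval 17 to 527).

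Among the genes that fell most, Dmd, which encodes dystrophin on chromosome X, dropped from 107, 110.0 and 105 to 2.46, 0.986 and 3.01 CPM, 51-fold (log2 fold change -5.63 ± 0.27 SE, adjusted p 3.64e-06). Foxp2, a forkhead repressor, dropped 59.9-fold from 23.3, 24.6 and 24.1 to 0.647, 0.247 and 0.348 CPM. Timp3, the matrix-bound inhibitor of metalloproteases, fell 39.4-fold from 51.7, 50.6 and 55.3 to 1.68, 0.669 and 1.74 CPM. In all 3 of these genes J0_MLKL 2 was the lowest library, and without it the log2 fold changes were -5.25, -5.57 and -4.90. Adcy1, a calcium-activated adenylate cyclase, fell 112-fold and Pde7b, which degrades cyclic AMP, 39.3-fold. The GTPase gene Rab12 fell 36.3-fold from 35.1, 34 and 31.6 to 1.21, 0.845 and 0.773 CPM, and Tfec, a factor of the MiT family, 45.4-fold. Others fell from low levels: 3830417A13Rik to 0 reads (at least 31.1-fold lower), Trpc5os by a ratio of 218 (exact 95% counting interval 38.8 to 8656), Sis by 199.9 (exact 95% counting interval 35.5 to 7931) and Prr16 by 43.7 (exact 95% counting interval 14.7 to 214), and Gimap6 and Sdr42e1 by 49.8-fold and 32.8-fold.

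Tril, a Toll-like receptor accessory protein, had the smallest p, with 92.6, 94.2 and 90.5 CPM in J0_CTL and 5.95, 5.21 and 5.72 CPM in J0_MLKL (adjusted p 1.59e-07), and Eif4g3, a translation initiation scaffold, fell from 89.1, 91.1 and 89.8 to 7.55, 5.99 and 7.92 CPM. Fmod (fibromodulin) rose from 36.3, 33.1 and 38.7 to 315, 347 and 359.5 CPM (adjusted p 5.26e-07), Ogn (osteoglycin) from 133, 134 and 132 to 572, 514 and 599 CPM and Ces1d, a carboxylesterase, from 5.83, 5.93 and 5.49 to 60.7, 69.9 and 54.9 CPM. Of the most abundant genes called, Ptn (pleiotrophin) had 4334 FPKM in J0_CTL and 3636 in J0_MLKL (log2 -0.22), a fall that lost the call without J0_CTL 1, J0_CTL 3, J0_MLKL 1 or J0_MLKL 3 (adjusted p up to 0.0653). Col1a1 rose 1.55-fold, Actb 1.33-fold and Cst3, a secreted protease inhibitor, 1.48-fold. Transcripts of the mitochondrial genome were higher in 8 of 11 tested cases and lower in 1, and mt-Co1 rose from 7838, 8196 and 7986 to 10381, 9649 and 10301 CPM.

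Genes of the extracellular matrix rose more often than they fell. Of 123 listed, 73 were tested, 47 (64.4%) were higher and 21 (28.8%) lower, with a median log2 fold change of 0.50. Without J0_MLKL 2 the counts were 49 and 21. Of the genes for proteoglycans and matricellular proteins 15 of 21 were higher and 5 lower. Among them are small leucine-rich proteoglycans, which bind collagen, named here after their values were seen: Fmod rose 9.5-fold, Ogn 4.21-fold, Omd 3.06-fold, Aspn 2.19-fold and Dcn 1.7-fold. Has2, the hyaluronan synthase, and Vcan, which binds hyaluronan, fell 4.66-fold and 2.49-fold. Has2 had 62.2, 61.4 and 62.1 CPM in J0_CTL and 15.5, 11.3 and 13.5 CPM in J0_MLKL.

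Elastic fibre and crosslinking genes were higher in 11 of 14 tested cases. Emilin2 rose 5.57-fold, Mfap4 3.67-fold, Efemp1 2.56-fold and Fbln1 2.45-fold, while Fbn1, the fibrillin backbone of the microfibril, fell 2.32-fold. Among collagens, 6 of 11 rose. Col11a1, which nucleates fibrils, rose 6.82-fold from 12, 12 and 13.2 to 90.4, 62.4 and 103 CPM, Col8a1 2.15-fold and Col3a1 1.29-fold, and Col12a1 fell 3.32-fold. Olfm2, an olfactomedin, rose 19.7-fold from 0.316, 0.446 and 0.525 to 7.5, 8.6 and 8.5 CPM.

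Basement membrane genes were divided, with 5 of 12 higher and 6 lower. The largest falls were Col15a1 (15.9-fold, from 8.34, 9.23 and 8.27 to 0.561, 0.493 and 0.579 CPM), the laminin chain Lama2 (4.6-fold), Nid2, which links laminin to collagen IV (4.16-fold), Col18a1 (2.59-fold) and the proteoglycan Agrn (2.27-fold). Lamb3 was 2.25-fold higher. Among proteases and inhibitors, the collagenase Mmp13 rose 3.71-fold and Mmp9 2.39-fold, whereas Timp3 and Timp4 fell 39.4-fold and 7.35-fold and Timp2 rose 1.33-fold.

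Receptors for matrix and the contractile apparatus were higher. Of 11 tested integrin genes 9 (81.8%) were higher and 0 lower, against 43.2% lower over all genes. Their median log2 fold change went from 1.04 to 0.75 after subtracting the chromosome medians. Itga1, a collagen receptor chain, had 5.0, 5.97 and 5.45 CPM in J0_CTL and 33.2, 24.7 and 37.9 CPM in J0_MLKL, 5.82-fold higher. Itga8 rose 2.49-fold, Itgb5, which pairs in a vitronectin receptor, 2.14-fold and Itga3 2.11-fold. The family was taken by gene symbol, so it also holds Itgbl1, an integrin-like gene and not a receptor chain, which rose 4.14-fold. Itgb1, the chain shared by most fibroblast integrins, rose 1.44-fold. Of 10 contractile genes 9 were higher and 0 lower, with a median log2 fold change of 1.11. Of the 10 genes 9 lie on chromosomes with a median above 0, and the median became 0.73 after subtracting the chromosome medians. Acta2 (smooth muscle actin) had 163, 171 and 191 CPM in J0_CTL and 293, 429 and 394 CPM in J0_MLKL, 2.17-fold higher. Mylk, the myosin light chain kinase, rose 2.47-fold and Tpm1 (tropomyosin) 2.11-fold, and Cnn2 and Lmod1 rose 2.14-fold and 2.37-fold. Mylk was at 197 CPM in J0_MLKL 2 and at 370.1 and 378 CPM in J0_MLKL 1 and 3. Myh11, at 0.834, 0.96 and 1.05 CPM in J0_CTL and 1.98, 0.705 and 1.66 CPM in J0_MLKL, was not called. Targets of the cofactor YAP were less uniform, with 3 of 6 higher and 1 lower.

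**Figure D5:**
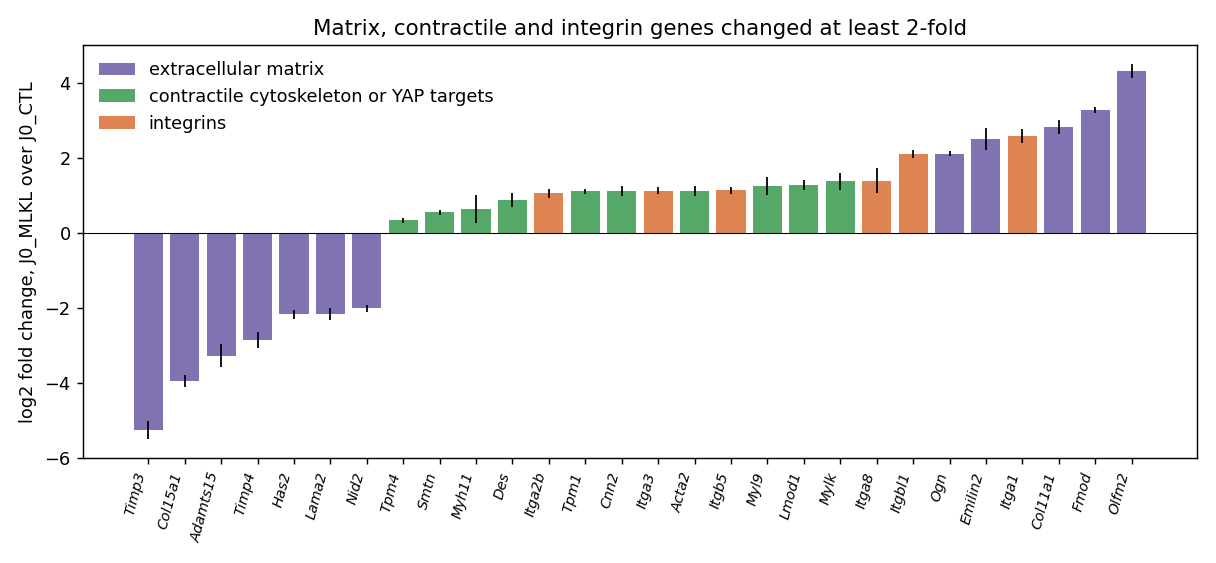
Log2 fold change of J0_MLKL over J0_CTL, with its standard error, for matrix, contractile and integrin genes. Shown are the extracellular matrix genes with the largest changes (purple) and the integrin genes called at a change of at least 2-fold (orange). All 10 tested contractile genes are shown (green), also those under 2-fold and Myh11, which was not called. The integrin genes shown and the other contractile genes are higher. The matrix genes lie on both sides of 0, from -5.26 for Timp3 to 4.31 for Olfm2.

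Canonical Wnt signals restrain adipogenesis. All 5 tested Wnt ligand genes were higher: Wnt6 from 1.64, 2.47 and 1.49 to 10.6, 13 and 9.93 CPM (6.0-fold), Wnt2b 2.69-fold, Wnt9a 2.22-fold, Wnt10b 2.02-fold and Wnt5a 1.61-fold. Of 8 tested receptors 4 were higher and 4 lower, near the shares over all tested genes (40.4% and 43.2%). Ror2, a receptor of the Wnt5a branch, rose 12.4-fold from 1.12, 1.1 and 0.848 to 13.8, 13.8 and 10.8 CPM, Fzd1 1.49-fold and Fzd2 1.69-fold. Fzd9 fell 12.1-fold from 1.47, 1.03 and 1.21 to 0.0431, 0.141 and 0.116 CPM, Fzd3 1.67-fold and Fzd4 1.55-fold. The 3 tested antagonists were lower, among them Dkk2 (7.14-fold). Of the targets, Wisp1 (now Ccn4) and the nuclear factor Lef1 rose 2.29-fold and 1.89-fold.

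In the TGF-beta and BMP pathway 10 of 28 tested genes were higher and 14 lower. The ligands Tgfb2 and Tgfb3 rose 1.89-fold and 1.84-fold, and Gdf10, a BMP family ligand, fell 8.65-fold. Acvrl1, the type I receptor ALK1, had 17.1, 18.8 and 18.4 CPM in J0_CTL and 4.66, 5.21 and 5.02 CPM in J0_MLKL (3.61-fold lower). Smad9, a BMP-regulated SMAD, fell 2.71-fold and Id1, a BMP target, 1.4-fold. The extracellular antagonists Chrdl1 and Nog moved in opposite directions, Nog falling 2.78-fold. Pmepa1, a TGF-beta target, rose 2.21-fold.

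Of 26 tested growth factor genes 11 were higher (42.3%) and 11 lower (42.3%), near the shares over all tested genes (40.4% and 43.2%). In the IGF axis, Igf1 rose 2.43-fold from 42.4, 40.4 and 40.6 to 114, 80.7 and 109 CPM, while its binding proteins Igfbp3 and Igfbp4 fell 9.3-fold and 3.99-fold and Igfbp6 rose 2.07-fold. Igfbp3 had 13.4, 15.3 and 15.3 CPM in J0_CTL and 1.47, 1.27 and 1.97 CPM in J0_MLKL. Stc2, an inhibitor of the protease PAPP-A, fell 4.02-fold. Hgf, the hepatocyte growth factor, fell 4.75-fold with 14.4, 5.04 and 16.8 CPM in J0_MLKL, so that the fall was largest in J0_MLKL 2, and Egfr fell 2.73-fold. Pdgfb rose 2.16-fold. Of the FGF feedback inhibitors, Spry1 rose 2.82-fold and Spry4 fell 3.06-fold.

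Adipogenic transcription factors were mainly lower: of 11 tested, 8 were lower and 1 higher. However, 9 of the 11 lie on chromosomes with a median below 0, among them 7 of the 8 lower, and the list's median of -0.42 became -0.077 after subtracting the chromosome medians. Zfp423, a determinant of preadipocyte fate, had 19.1, 17 and 20.5 CPM in J0_CTL and 6.94, 7.57 and 8.46 CPM in J0_MLKL (2.44-fold lower). Klf4, an early activator, fell 2.21-fold from 122, 121 and 124 to 58.8, 52.5 and 55.6 CPM, and Ebf2 2.0-fold. Cebpa, a late regulator, stood at 16.3, 16.2 and 18.3 CPM in J0_CTL and 10.1, 13.1 and 10.9 CPM in J0_MLKL, 1.47-fold lower. Pparg, the master regulator, was at 25.6, 27.4 and 26.3 CPM in J0_CTL and 22, 22.4 and 17.1 CPM in J0_MLKL, and its fall (log2 -0.34, adjusted p 0.0219) lost the call without J0_CTL 2 (adjusted p 0.0739), J0_CTL 3 or J0_MLKL 3. Srebf1, the regulator of lipid synthesis, was 1.19-fold higher, and lost the call without J0_CTL 1 (adjusted p 0.0759) or J0_CTL 2. Of 21 tested genes of lipid handling 7 were higher (33.3%) and 6 lower (28.6%), beside 40.4% and 43.2% over all tested genes. Fabp4, the fatty acid carrier that marks commitment, fell from 5.92, 6.38 and 5.85 to 1.51, 1.37 and 0.889 CPM, while Lpl, the lipoprotein lipase, rose 1.77-fold and Mgll, the monoglyceride lipase, 2.84-fold.

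Progenitor genes changed in both directions, 9 of 18 higher and 7 lower. Pi16, which marks early fibroblast progenitors, fell 2.7-fold from 40.4, 40.5 and 43.5 to 11.8, 20.6 and 12.6 CPM, Thy1 1.71-fold and Ly6a (Sca-1) 1.52-fold. Cd34 rose 2.39-fold, Klf2 2.0-fold, and Twist1 and Twist2 1.75-fold and 1.53-fold. Positional identity genes of the Hox family shifted as well. Hoxb9 fell to near 0, with 1.87, 1.72 and 1.7 CPM in J0_CTL and 1 read over J0_MLKL, a ratio of 137 (exact 95% counting interval 24.2 to 5448). From the HoxC cluster, Hoxc5 had 2 reads over J0_CTL and 1.94, 1.66 and 2.2 CPM in J0_MLKL, a ratio of 85.3 (exact 95% counting interval 23.2 to 711). Hoxc4 rose 59-fold to 2.37, 3.49 and 2.01 CPM. Hoxc6 rose 5.14-fold and Hoxc9 3.87-fold. Neighbouring Hoxc transcripts overlap, and their reads may not be separate.

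Further families were described for their size of change. Imprinted genes were lower in 6 of 7 tested cases: the noncoding RNA H19 fell 13.3-fold from 7.13, 6.31 and 7.1 to 0.561, 0.599 and 0.386 CPM and Peg3 8.54-fold from 248, 249 and 265 to 34.4, 18.5 and 37.6 CPM. However, 6 of the 7 lie on chromosomes with a median below 0, among them 5 of the 6 lower. The median of the imprinted genes went from -0.62 to -0.36 after subtracting the chromosome medians. Cadherin and protocadherin genes were lower in 14 of 20 cases and higher in 4. Of these, 12 belong to the clustered protocadherins of chromosome 18, of which 9 were lower and 2 higher. Transcripts of the Pcdha and Pcdhg clusters share exons, and 128 of the 153 tested genes of chromosome 18 were lower. Pcdh17 on chromosome 14 fell 24.5-fold. In the dystrophin complex the fall of Dmd stood beside a rise of Sgcb (2.3-fold, from 31.8, 34.7 and 34.3 to 76.9, 76.4 and 77.7 CPM). Of the adenylate cyclases, Adcy7 rose 5.1-fold and Adcy9 fell 2.12-fold (14.8, 5.81 and 16.7 CPM in J0_MLKL). Glutathione transferase genes were higher in 6 of 7 cases and lower in 0, with Gstm7 4.09-fold, Gstt1 2.12-fold and Gstt3 2.18-fold higher. All 6 lie on chromosomes with a median above 0, and the family's median went from 1.11 to 0.94 after the same subtraction. TRP channel genes were higher in 7 of 8 cases, and Trpv4 fell 3.1-fold. Guidance genes included Ntng1 (9.96-fold higher), Sema3b (3.92-fold higher), Sema7a (5.5-fold higher) and Ntn1 (2.41-fold lower).

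Inflammatory genes outside the interferon list were mainly higher. Of 15 tested inflammatory genes 11 (73.3%) were higher and 3 lower, with a median log2 fold change of 0.64. Of the 11 higher genes 8 lie on chromosomes with a median above 0. After subtracting the chromosome medians the list's median was 0.45. Cxcl12, a chemokine of stromal cells, rose from 1438, 1357 and 1436 to 2080.0, 2094 and 2192 CPM, Cxcl5 rose 1.61-fold and Nfkb1 1.52-fold, while Ccl5, a chemokine that interferon also induces, fell 2.91-fold. The cytokine Il34, which lies near Mlkl, rose 2.32-fold. Of 8 complement genes 4 were higher and 2 lower. C3, the central component, had 246, 237 and 235 CPM in J0_CTL and 639, 588 and 666 CPM in J0_MLKL (2.62-fold higher), and the classical proteases C1ra and C1s1 rose 2.5-fold and 2.32-fold, whereas Cd55, which protects cells from complement, fell 14-fold from 26.6, 23 and 26.6 to 1.42, 1.51 and 2.51 CPM.

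Of the cell death genes 9 were tested. Gsdmd, the pore of pyroptosis, rose 2.71-fold from 3.94, 5.15 and 3.67 to 10.4, 13 and 11 CPM, and Il18, a cytokine released through it, 2.37-fold. Of 5 apoptosis genes 4 were lower and 0 higher. The ESCRT-III gene Chmp2b, of the machinery that sheds damaged membrane, rose 1.96-fold. Cell cycle genes were lower in 9 of 19 cases (47.4%) and higher in 5 (26.3%), beside 43.2% and 40.4% over all tested genes. Ccne1 (cyclin E) was 2.35-fold lower. Among stress genes, 13 of 22 were higher and 5 lower, and the small heat shock gene Hspb8 rose 3.99-fold from 10.8, 10.7 and 10.6 to 40.9, 45.9 and 40.9 CPM. Metabolic genes had 13 higher (37.1%) and 12 lower (34.3%) of 35.

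Of 79 markers of other cell types 16 were tested, 7 were higher and 7 lower. Not all were low: Sox9, a chondrocyte factor, stood at 232 to 259.6 CPM in J0_CTL and 180.1 to 217 CPM in J0_MLKL, Runx2, an osteoblast factor, at 68.2 to 70.4 CPM in J0_CTL, and the muscle gene Actn3 at 37.5 to 41.2 CPM in J0_CTL and 51.9 to 66.1 CPM in J0_MLKL. Of the macrophage markers, Cd14 and Lyz2 have values for both groups. Their sum was 85.3 to 90.7 CPM in J0_CTL and 29.2 to 43.8 CPM in J0_MLKL, and Lyz2 is a neighbour of Mdm2. The macrophage genes Csf1r and Cd68 were at or under 1.61 CPM in J0_CTL. Krt7 and Krt5, epithelial keratins, rose 4.8-fold and 4.04-fold from under 1 CPM. In bulk RNA, fewer cells of a type and less RNA per cell cannot be told apart.

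In the authors' deposited table of KEGG pathways for this comparison 14 pathways had an adjusted p under 0.05. The authors' deposited table puts Proteoglycans in cancer first, with 62 listed genes, 34 higher and 28 lower (adjusted p 0.000432). Axon guidance (50 genes, adjusted p 0.00246) and Wnt signaling (44 genes, adjusted p 0.00485) stand further down in the authors' deposited table. Below these, the authors' deposited table gives ECM-receptor interaction with 26 genes, 20 higher and 6 lower (adjusted p 0.0124), Focal adhesion with 54 genes, 32 higher and 22 lower (adjusted p 0.0124), and Hippo signaling with 43 genes (adjusted p 0.0301).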

How the data were processed

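Per the submitters' processing notes, reads were handled with FastQC 0.11.9, HISAT2, featureCounts 1.5.0-p3 and DESeq2 on mm10; strand settings are not given in the sources used here. The deposited tables give, per gene and library, raw counts, normalised counts (signal: counts divided by the authors' size factor) and FPKM, beside the authors' log2 fold change and p-values. The deposited tables also give, as other values, coordinates and gene length in bases. The deposited pathway table gives p-values and counts of listed genes. Since rows exist only for genes past the authors' threshold in some comparison, counts were joined by gene identifier over all tables with J0_CTL or J0_MLKL columns (88950 repeated values, 0 different).

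CPM were computed from the counts and the denominator of the authors' FPKM. These denominators are not whole numbers and may hold a scaling factor, so they are not proven read totals. J0_CTL and J0_MLKL alone were fitted with edgeR 4.0.16 in R 4.3.3 (filterByExpr, TMM, quasi-likelihood F test, Benjamini-Hochberg over all 3824 genes). The edgeR fit was tested on simulated data. Standard errors were derived from the F statistic. Folds are ratios of pooled reads over pooled denominators. A group with 0 reads is set to 3 reads over the group, and with 1 to 3 reads an exact 95% interval is given; both cover counting error only. J0_MLKL against J0_RIPK3 and the J7 minus J0 difference were fitted likewise on the groups named.

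Members and gene lists were chosen with earlier results of these data known. Genes named were Mlkl and Ripk3, the 15 largest changes each way among protein-coding called genes without overlap and with at least 1 CPM, the 10 most abundant called genes, the 5 smallest p each way, up to 12 list members with a change of at least 2-fold, members needed by their role, and genes within 1 Mb of Mlkl; the Mdm2 neighbours and other members under 2-fold were added after values were seen. Promoters are from RefSeq, GRCm38.p6, matched by symbol (2761 of 3823 tested symbols). Alternatives were other size factors, filters, DESeq2, a 2-fold minimum, a replicate block and leaving out each library. Gene ontology tables were not used here. Some single genes are not reported here.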

Additional observations from a re-analysis of the deposited data

Results flagged for a closer look

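The interferon response genes that were lower in J0_MLKL than in J0_CTL were mostly higher in J7_MLKL than in J7_CTL, a difference between the stages that was itself tested as an interaction in 1 edgeR fit of the 4 groups. Of the interferon list 53 genes had counts given for all 4 groups. Of these, 44 were lower at J0, 49 were higher at J7, and 40 did both with a called difference between the stages. Over all 3033 genes of this fit 48.3% were higher at J7 and 9.46% had that combination. The median log2 fold change of the list was -0.99 at J0 and 2.46 at J7. The J7_MLKL libraries are named by title, and their genotype entry names the other knockout. Ifit1 averaged 35.5 ± 4.6 CPM (SD, n = 3) in J0_CTL, 7.36 ± 0.122 in J0_MLKL, 0.32 ± 0.0827 in J7_CTL and 34.8 ± 5.64 in J7_MLKL. Oasl2 averaged 30.0 ± 1.9, 6.1 ± 0.925, 0.358 ± 0.148 and 39.3 ± 12.9 CPM in the same order. The level in J7_CTL was thus far below that in J0_CTL. On the log2 scale the J7 difference exceeded the J0 difference by 8.99 in Ifit1 (adjusted p 3.85e-10) and by 9.03 in Oasl2 (adjusted p 9.74e-09). It exceeded it by 9.5 in Oas2, 8.03 in Rtp4, 6.91 in Oas1a, 6.64 in Ddx60, 5.77 in Gbp9 and 5.15 in Iigp1, with adjusted p from 3.08e-09 to 3.28e-06. For Oas1g (13.9) and Gbp4 (8.13) J7_CTL had 0 reads, so these values depend on the prior count of the fit and are no bounds. Ifih1, the deepest fall among the sensors, was lower at both stages (log2 -4.37 at J0 and -1.31 at J7). What sets the level at either stage was not tested.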

How the results depend on the processing

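The counts of 1545 higher and 1651 lower genes stayed within 1.5 times under DESeq2 size factors (1593 and 1625), total reads only (1513 and 1683), the authors' size factors (1501 and 1698), no filter (1572 and 1719), a higher filter of 50 counts on average (1344 and 1436) and the DESeq2 test (1601 and 1674). Leaving out 1 library at a time gave 1484 to 1657 higher and 1525 to 1762 lower genes, the highest without J0_MLKL 2. A minimum change of 2-fold reduced them to 456 and 543, and the lower interferon genes from 50 to 25. The counts without a fold minimum could move little, since most tested genes had passed the authors' threshold in the same libraries. The 2972 tested genes that the authors listed for this comparison gave 1397 higher and 1575 lower. Genes that the authors did not list for it gave 148 higher and 76 lower. Same-numbered libraries had correlations of deviations of -0.042, -0.01 and 0.069, and 1 of 3 J0_MLKL libraries correlated best with its own number. With 3 libraries per group these values cannot decide whether replicate numbers pair the samples. With the replicate block, 1512 genes were higher and 1628 lower. Of 269 named genes called, 8 lost the call in at least 1 alternative other than the 2-fold minimum (Btg2, Ddx19b, Fzd8, Klf5, Nr3c1, Pparg, Ptn and Srebf1). With the 2-fold minimum every named gene under 2-fold loses it. Only values near 0 changed sign: Rab3ip became 0.013 with DESeq2 size factors, 0.0083 in the DESeq2 test, 0.024 without J0_MLKL 1 and 0.012 without J0_MLKL 3 (-0.097 without J0_MLKL 2), and St3gal2 became 0.023 with DESeq2 size factors, 0.018 in the DESeq2 test and 0.032 without J0_MLKL 2 (-0.060 without J0_MLKL 1). Against J0_RIPK3, Ptn became -0.030 and Myh11 -0.0292 with total reads only. The fitted folds of some genes with few reads in 1 group moved by over 1.5 times without single libraries. On the log2 scale, Ntn4 went from 4.48 to 7.91 without J0_CTL 2, Aspg from 5.74 to 8.29 without J0_CTL 2, Hoxc5 from 6.18 to 8.78 without J0_CTL 3, Kcnj2 from 5.63 to 8.12, Panx1 from 6.67 to 8.38 and Hoxc4 from 5.77 to 6.84 without J0_CTL 1. Hoxb9 went from -6.64 to -8.62 without J0_MLKL 3, Sis from -7.18 to -9.19 without J0_MLKL 1, and without J0_MLKL 2 Oas1g from -6.25 to -8.20, Trpc5os from -7.31 to -9.27, Gimap6 from -5.48 to -4.86 and Sdr42e1 from -4.94 to -5.53. The lower group of each of these genes had few reads, and the cause of the moves was not tested.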
